A study of Mus musculus with 18 samples.

Results

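The cytosolic ribosomal protein genes were taken as the protein-coding mouse genes whose symbol begins with Rpl or Rps followed by a number or by p0, p1 or p2, with an optional closing letter or digit, together with *Rpsa*. Pseudogenes were left out. The rule found 84 of the 55414 genes counted, 33 of the small (40S) subunit and 51 of the large (60S) subunit. The RNA came from N2A (Neuro-2a) cells, an established mouse neuroblastoma line, 72 h after transfection of an siRNA with Lipofectamine RNAiMAX. The control cells (Scramble KD, the neg_control samples of the labels) received either of a pair of non-targeting siRNAs, A or B. The *Fmr1* KD cells (fmrp in the labels) received siRNA A or B against *Fmr1*, which encodes the RNA-binding protein FMRP. The *Zfp598* KD cells (znf in the labels) received siRNA A or B against *Zfp598*, which encodes a ubiquitin ligase of collided ribosomes. Each of the 6 siRNAs was used for 3 libraries, so that each of the 3 conditions had n = 6. The question was which transcripts rise when either factor is depleted. KD was carried out in triplicate with each siRNA, and the labels say no more about how the cultures were kept apart. The p-values measure the spread between these libraries, and the pooled tests count the 6 libraries of a pair of siRNAs as replicates. Every KD is a transient depletion in 1 cell line, and an effect of the target cannot be told apart from an effect of an siRNA that its partner siRNA does not share.

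A ribosome carries a single copy of most ribosomal proteins, so their mRNAs are made in large and roughly matched amounts and are among the most abundant in a dividing cell. Most of these mRNAs begin with a 5′ terminal oligopyrimidine (TOP) tract, a C followed by a run of pyrimidines, through which their translation follows growth signals and mTOR activity. A few genes have paralogs whose proteins replace the usual subunit or act in ribosome assembly. When ribosomes collide, ZNF598 ubiquitylates RPS10 and RPS20 of the small subunit, which marks the mRNA for no-go decay. FMRP itself is found on polyribosomes.

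The start of the gene is shown for members with distinct behaviour in the comparisons given further on. Each line holds 30 bases of GRCm39 from RefSeq, 15 before the annotated transcription start and the first 15 of the first exon, 5′ to 3′ on the strand of the gene. Capitals mark a run of at least 6 pyrimidines that begins with C, anywhere in the window. *Rpl4* and *Rpl13a* of the large subunit were lower after *Zfp598* siRNA B.
*Rpl4* (chr9:64080654-64080683, plus strand): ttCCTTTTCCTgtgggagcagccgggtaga
*Rpl13a* (chr7:44778155-44778184, minus strand): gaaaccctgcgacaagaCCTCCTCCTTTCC
*Rps2* and *Rps6* of the small subunit were high in 2 of the 3 libraries of *Zfp598* siRNA A.
*Rps2* (chr17:24939022-24939051, plus strand): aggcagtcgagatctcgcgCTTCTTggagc
*Rps6* (chr4:86775590-86775619, minus strand): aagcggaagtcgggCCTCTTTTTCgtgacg
*Rpl38* and *Rpl22l1* were lower after *Fmr1* siRNA A.
*Rpl38* (chr11:114559391-114559420, plus strand): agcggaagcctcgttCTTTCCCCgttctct
*Rpl22l1* (chr3:28859642-28859671, plus strand): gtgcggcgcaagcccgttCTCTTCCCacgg
*Rplp0* and *Rpl7l1* differed between the A and B siRNAs of the Scramble control and of *Fmr1* KD.
*Rplp0* (chr5:115697511-115697540, plus strand): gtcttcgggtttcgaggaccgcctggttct
*Rpl7l1* (chr17:47093568-47093597, minus strand): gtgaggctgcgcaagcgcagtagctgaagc
*Rplp0* and *Rpl7l1* had no such run in this window. A RefSeq window was found for 63 of the 84 members, and 33 of them (52.4%) held a run, against 3583 of 15319 protein-coding genes with a window (23.4%). The share was 13 of 24 in the small subunit (54.2%) and 20 of 39 in the large subunit (51.3%). The run lay wholly before the annotated start in 9 of the 33, *Rpl4* among them, and so outside the annotated mRNA. It reached into the first exon in the other 24 (38.1% of the 63), against 12.3% of the protein-coding genes. A match of letters is neither a TOP tract nor a mapped start site.

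The libraries held 7674724 to 15414590 counts each. The targeted mRNAs were depleted in every library of their own KD. *Fmr1* was at 51.2 to 68.6 CPM (counts scaled to the normalised library size) in Scramble KD and at 15.7 to 27.4 CPM in *Fmr1* KD, a log2 difference of -1.43 (SE 0.145, adjusted p = 1.26e-05, edgeR quasi-likelihood test with Benjamini-Hochberg adjustment). *Zfp598* was at 103 to 128 CPM in Scramble KD and at 32.0 to 48.5 CPM in *Zfp598* KD (-1.53, SE 0.10, adjusted p = 1.17e-08). All 12 noradrenergic neuroblastoma markers were counted, with a summed level of 1045 to 1931 CPM, against 0.746 to 3.26 CPM for 5 haematopoietic markers, 20.3 to 41.3 CPM for 7 fibroblast markers and 72.7 to 189 CPM for 8 pluripotency markers. These sums moved with the siRNA groups. The neuroblastoma sum was 1803 to 1931 CPM after Scramble A and 1045 to 1179 CPM after Scramble B, 1194 to 1330 and 1305 to 1525 CPM after *Fmr1* siRNAs A and B, and 1565 to 1857 and 1416 to 1587 CPM after *Zfp598* siRNAs A and B. The pluripotency sum was 72.7 to 84.0 CPM after Scramble A and 133 to 144 CPM after Scramble B, 175 to 189 and 127 to 145 CPM after the *Fmr1* siRNAs, and 131 to 177 and 117 to 124 CPM after the *Zfp598* siRNAs. The fibroblast sum was 40.6 to 41.3 CPM after Scramble A and 29.1 to 35.8 CPM after Scramble B, 26.9 to 29.6 and 30.4 to 31.6 CPM after the *Fmr1* siRNAs, and 25.9 to 38.9 and 20.3 to 27.3 CPM after the *Zfp598* siRNAs. Scramble A thus did not overlap *Fmr1* siRNA A in the neuroblastoma, pluripotency or fibroblast sums, nor *Zfp598* siRNA A in the pluripotency or fibroblast sums. Scramble B did not overlap *Zfp598* siRNA B in the neuroblastoma, pluripotency or fibroblast sums, nor *Fmr1* siRNA B in the neuroblastoma sum. Of the defining markers, *Pou5f1* was at 0 in Scramble A, Scramble B, *Fmr1* siRNA A and *Zfp598* siRNA A, and *Lum* was at 0 in all 18 libraries. The part of these markers in the comparisons by siRNA was not tested. *Nefl* of this list was at 0 in all *Zfp598* KD libraries. Libraries 2 and 3 of *Zfp598* siRNA A (A2 and A3) stood apart: the most counted feature took 15.2% and 25.8% of their counts, against 5.00 to 11.1% in the other 16 libraries, and protein-coding genes took 80.9% and 70.7%, against 84.8 to 90.5%. The counts of members called in *Zfp598* KD and some medians are given with and without these libraries. The paralog ratios, most values of genes read by role and the test over all 6 groups are given only with them. So are the medians of gene lists and of members with and without a pyrimidine run.

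Transcripts of 82 members were abundant enough to test. *Rpl10l* (mean 0.944 counts, highest 10) and *Rpl3l* (mean 5.50 counts, highest 18), the germ cell and muscle paralogs of *Rpl10* and *Rpl3*, were not tested. Per kilobase of annotated exon, the mean level over the 18 libraries spanned 957-fold across the tested members, from 1.59 CPM per kb for *Rps4l* to 1524 CPM per kb for *Rps2*, with a median of 127 CPM per kb. *Rps2* was followed by *Rplp1* (1221 CPM per kb), *Rps4x* (1194 CPM per kb), *Rpl8* (741 CPM per kb) and *Rpl10* (704 CPM per kb). Each of these 5 overlapped its neighbour in the order over the range of the libraries. The lowest after *Rps4l* were *Rpl24* (2.56 CPM per kb), *Rpl26* (3.71 CPM per kb), *Rpl29* (3.84 CPM per kb) and *Rpl23a* (5.39 CPM per kb), all core proteins of the large subunit. The median was 138 CPM per kb for the 33 small subunit genes and 125 CPM per kb for the 49 large subunit genes. The lengths merge the exons of all annotated transcripts of a gene, so they can exceed the length of its mRNA. Reads of a member and of its copies may not be told apart, and 42 of the 84 members share at least 50% of their 31-base windows with other places in the genome (median share 50.1%). The share was 85.6% for *Rpl24*, 33.8% for *Rpl26*, 21.3% for *Rpl29* and 94.0% for *Rpl23a*. Members with a share of 50% or more had a median of 182 CPM per kb and the others 106 CPM per kb. Across the 82 genes, which share the same libraries, the log2 level and the share of windows had Pearson's r = 0.140 and Spearman's rho = 0.192.

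**Figure D1:**
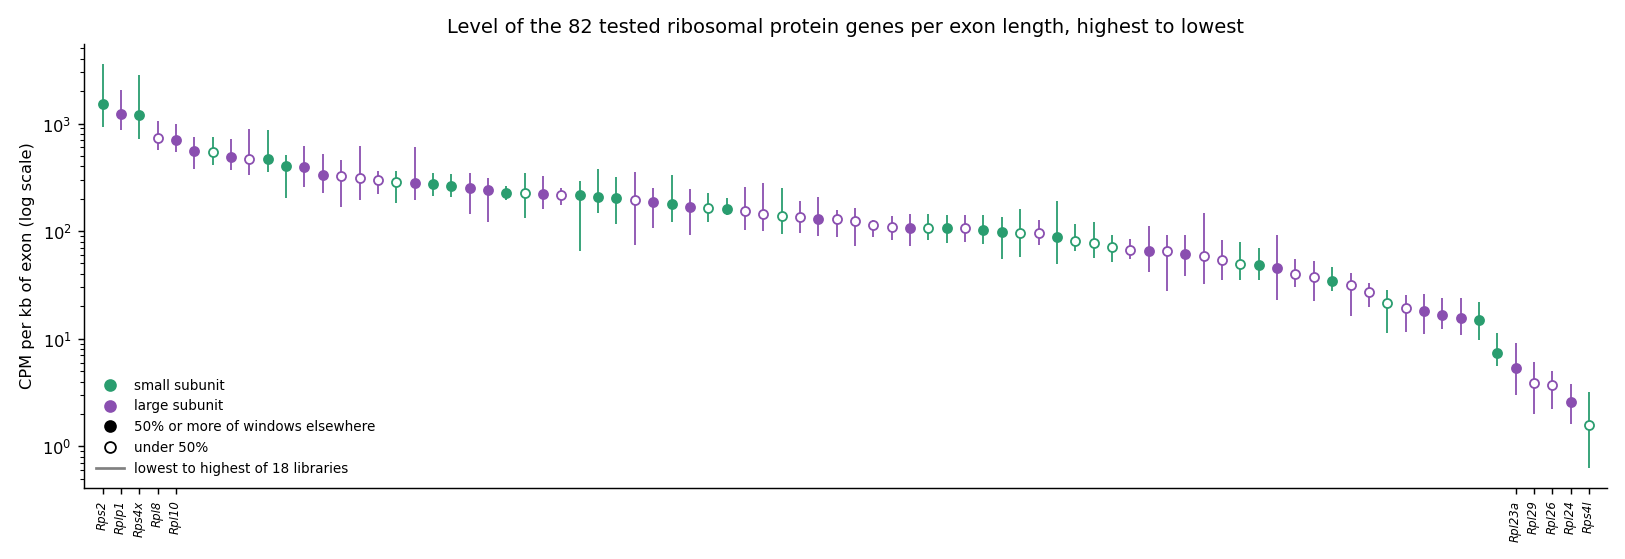
Mean CPM per kb of annotated exon (log axis) of the 82 tested ribosomal protein genes, highest to lowest with the 5 genes at each end named, coloured by subunit and filled where 50% or more of the 31-base windows occur elsewhere in the genome; vertical lines run from the lowest to the highest of the 18 libraries. Levels fell from 1524 CPM per kb for *Rps2* to 1.59 CPM per kb for *Rps4l*, and small and large subunit genes were mixed along the order.

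Together the 84 genes took 4.78% ± 0.477 (SD, n = 3) of the protein-coding counts after Scramble siRNA A and 4.82% ± 0.369 after Scramble siRNA B. The share was 4.92% ± 0.452 after *Fmr1* siRNA A and 4.55% ± 0.334 after *Fmr1* siRNA B, each less than 1 SD from its Scramble mean. It was 5.94% ± 0.861 after *Zfp598* siRNA A and 4.24% ± 0.373 after *Zfp598* siRNA B. The high mean of *Zfp598* siRNA A came from libraries A2 and A3, with 6.47% and 6.39%, while A1 was at 4.94% and all 16 other libraries lay between 3.85% and 5.40%. The ratio of small to large subunit counts was also highest in A2 and A3 (0.837 and 0.910, against 0.662 to 0.813). In these 2 libraries 34 of the 82 tested members (15 small and 19 large subunit) were above all 16 others and 6 were below, beside 9.48% and 7.76% of all genes tested (17.2% together). Named ribosomal protein pseudogenes, of which 322 were counted, added 0.965 to 1.47% to the members' counts. In bulk RNA, a change in the make-up of the culture and a change per cell cannot be told apart.

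**Figure D2:**
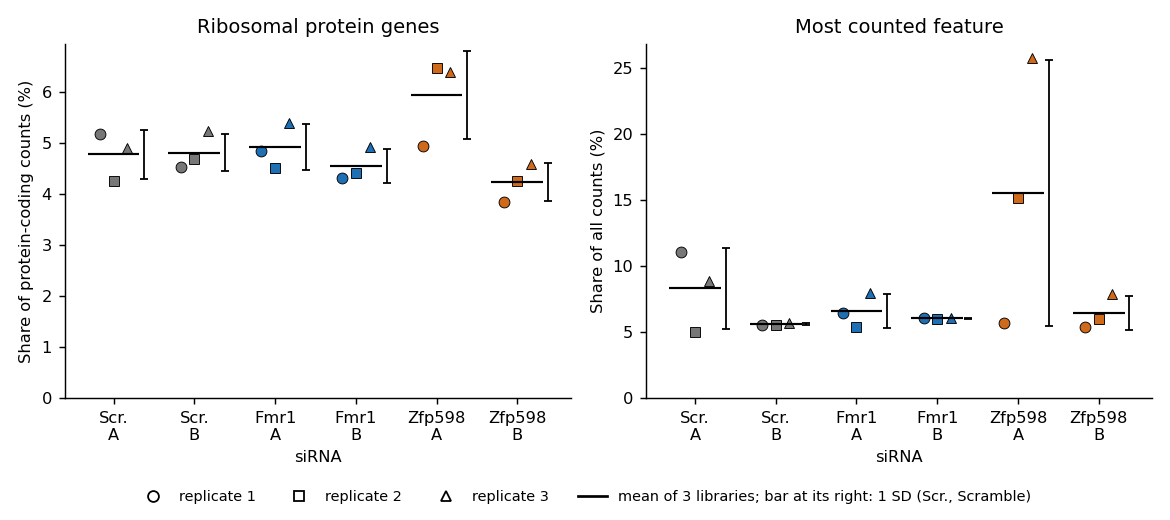
Left, counts of the 84 ribosomal protein genes as a percentage of protein-coding counts in each of the 18 libraries. Right, counts of the most counted feature as a percentage of all counts. Both are by siRNA group (Scr., Scramble), with the mean and 1 SD of 3 libraries. On the left, libraries A2 and A3 of *Zfp598* KD were at 6.47% and 6.39% and the other 16 between 3.85% and 5.40%.

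With the siRNAs of a target pooled (n = 6 against n = 6), *Fmr1* KD differed from Scramble KD in few ribosomal protein mRNAs. Of the 82 members 2 passed an adjusted p of 0.05, *Rpl7l1* higher and *Rpl9* lower, against 6.54% of all 17901 genes tested (2.73% higher and 3.8% lower), and 11 had an unadjusted p under 0.05, as 21.6% of all genes did. The median log2 difference was -0.08 over the members (-0.05 for the small and -0.13 for the large subunit) and 0.00 over all genes, and no member passed 2-fold, as 1% of all genes did. *Rpl7l1*, a diverged relative of *Rpl7* found on assembling 60S particles, ranged from 41.3 to 76.3 CPM (median 53.4) in Scramble KD and from 70.2 to 91.3 CPM (median 82.4) in *Fmr1* KD. Its difference was 0.55 (SE 0.144, adjusted p = 0.0242, edgeR quasi-likelihood test), and the highest Scramble library lay above the lowest *Fmr1* KD libraries. It no longer passed without Scramble A2, *Fmr1* A1, *Fmr1* A2 or *Fmr1* A3 in turn (0.48, 0.53, 0.53 and 0.52, adjusted p = 0.0538, 0.0537, 0.0531 and 0.0567). *Rpl9*, a protein of the 60S subunit next to the factor-binding site, ranged from 590.0 to 866 CPM (median 709.8) in Scramble KD and from 438 to 659 CPM (median 505) in *Fmr1* KD, and these ranges overlapped. Its difference was -0.43 (SE 0.124, adjusted p = 0.0434), and it no longer passed in 9 of the 18 fits that left out 1 library (Scramble B1, B2 or B3, *Fmr1* A1, A2, A3 or B1, *Zfp598* B2 or B3), with values from -0.44 to -0.36 and adjusted p from 0.0505 to 0.109. The exons of *Rpl9* overlap those of *Klb* on the opposite strand, and 93.0% of its windows occur elsewhere in the genome. Library ranges separated in only 2 of the 82 members, against 5.66% of all genes tested (2.36% higher and 3.29% lower). *Rps27l* was at 38.9 to 45.9 CPM in *Fmr1* KD and 33.2 to 37.7 CPM in Scramble KD, and *Rpl22* ranged from 288 to 359 CPM (median 311) in *Fmr1* KD and from 376 to 457 CPM (median 388) in Scramble KD. Neither passed the test (*Rps27l* 0.27, SE 0.115, adjusted p = 0.178; *Rpl22* -0.34, SE 0.114, adjusted p = 0.0807).

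Each siRNA of *Fmr1* was then set against its like-lettered Scramble siRNA in a model of all 6 groups. The match by letter was a choice, as the labels do not say that siRNAs of the same letter belong together. *Rpl9* was lower with both siRNAs, and *Rplp0* was called with both in opposite directions. After siRNA A, 7 of 82 members passed (22% of all 19003 genes did), 1 higher and 6 lower (9.35% and 12.7% of all genes). *Rpl7l1* was at 44.7, 41.3 and 45.5 CPM after Scramble A and 89.7, 89.7 and 91.3 CPM after *Fmr1* siRNA A, so that the groups lay far apart. The difference of 1.04 (SE 0.0939, adjusted p = 1.13e-07) made it the only member past 2-fold in this comparison (3.55% of all genes). Library ranges separated in 16 members, 7 higher and 9 lower, against 37.9% of all genes (18.4% and 19.5%). *Rpl38*, at the outer end of the peptide exit tunnel, was at 185, 139 and 185 CPM after Scramble A and 88.2, 76.3 and 121 CPM after *Fmr1* siRNA A (-0.84, SE 0.180, adjusted p = 0.00183). The groups of *Rpl38* did not overlap. *Rplp0*, the base of the P stalk that recruits translation factors, fell from 1985, 1589 and 1872 CPM to 1138, 1111 and 1153 CPM (-0.68, SE 0.0977, adjusted p = 3.01e-05). *Rpl9* (-0.46) and *Rpl22* (-0.43) were lower too. These 5 calls held without any 1 library. *Rpl22l1* (-0.64, adjusted p = 0.0247) and *Rps25* (-0.57, adjusted p = 0.0203) were also lower, and passed in 14 and 15 of the 18 fits that left out 1 library. *Rpl22l1* lost its call without Scramble A1, Scramble A3, *Fmr1* A1 or *Fmr1* A2, and *Rps25* without Scramble A2, *Fmr1* A1 or *Fmr1* A3. Without *Zfp598* A1 the count of members called was 11. Here and below, a count with 1 library left out and no share of all genes shows only how far it moved. Such a count is no result about the members. The median over the members was 0.02 (small subunit 0.08, large subunit -0.02) and moved between -0.06 and 0.08 as single libraries were left out, so that its sign was not stable.

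After *Fmr1* siRNA B, 7 of 82 members passed (21.4% of all genes), all of the large subunit, 1 higher and 6 lower (11% and 10.4% of all genes). Library ranges separated in 21 members, 2 higher and 19 lower, against 42.7% of all genes (21.7% and 21%). *Rplp0* was at 1160.4, 1184 and 1203 CPM after Scramble B and 1796, 1835 and 1860.3 CPM after *Fmr1* siRNA B (0.63, SE 0.0976, adjusted p = 8.05e-05), a rise with no overlap and opposite to siRNA A. *Rpl9* was at 766, 800.1 and 866 CPM after Scramble B and 555, 636 and 659 CPM after *Fmr1* siRNA B (-0.40, SE 0.0922, adjusted p = 0.00368). These calls held without any 1 library. The other 5 were *Rpl28* (-0.56), *Rpl13a* (-0.44), *Rpl7* (-0.41), *Rpl4* (-0.41) and *Rpl30* (-0.36), each of which lost its call without at least 1 library. The count of 7 was 4 without Scramble B2, 2 without Scramble B3, 3 without *Fmr1* B1 or *Fmr1* B2, 17 without *Zfp598* A1 and 14 without *Zfp598* A3 (26% and 24.5% of all genes), libraries that are in neither group of this comparison. Most values lay slightly below 0, with 10 of 82 above 0 and a median of -0.20 (small subunit -0.14, large subunit -0.22), while the median of all genes was 0.01. The median stayed between -0.28 and -0.11 without any 1 library.

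The difference between the effects of the *Fmr1* siRNAs was itself significant for 5 of 82 members (20.5% of all genes), 1 higher and 4 lower (11.6% and 8.86%). This difference depends on the match by letter, since the Scramble siRNAs also differed from each other. It was 1.31 for *Rplp0* (SE 0.138, adjusted p = 1.03e-06, edgeR quasi-likelihood test) and -0.93 for *Rpl7l1* (SE 0.131, adjusted p = 2.91e-05), counted as siRNA B minus siRNA A. *Rpl35* (-0.72), *Rpl4* (-0.57) and *Rps23* (-0.39) had smaller values. The count of 5 was 3 without Scramble A1, Scramble A3 or *Fmr1* B1, 9 without Scramble B1, 10 without Scramble A2, 12 without *Zfp598* A1 and 11 without *Zfp598* A3.

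The A and B siRNAs of the control also differed from each other, and their libraries are those of the comparisons above. Between Scramble siRNA B and Scramble siRNA A, 6 of 82 members passed (21.1% of all genes), 5 higher and 1 lower (9.48% and 11.6%). *Rplp0* was lower after Scramble B (-0.62, SE 0.0976, adjusted p = 1.04e-04), with all 3 libraries at 1160.4 to 1203 CPM against 1589 to 1985 CPM. *Rpl7l1* was higher (0.61, SE 0.0939, adjusted p = 7.60e-05), at 61.3 to 76.3 CPM against 41.3 to 45.5 CPM. *Rpl9* (0.39), *Rps16* (0.57), *Rpl39l* (0.46) and *Rpl13a* (0.41) were higher as well. The calls of *Rplp0*, *Rpl7l1* and *Rpl9* held without any 1 library, and those of *Rps16*, *Rpl39l* and *Rpl13a* passed in 17, 13 and 15 of 18 such fits. The count of 6 was 3 without Scramble A1, 15 without Scramble A2, 13 without *Zfp598* A1 and 12 without *Zfp598* A3. For *Rplp0* the levels formed a low set of 6 libraries (Scramble B and *Fmr1* A, 1111 to 1203 CPM) and a high set of 12 (Scramble A, *Fmr1* B and both *Zfp598* siRNAs, 1589 to 2233 CPM), with none between. Set against the Scramble siRNA of the other letter, either *Fmr1* siRNA would thus have its *Rplp0* libraries in the same set as the control. The *Fmr1* siRNAs themselves also differed in *Rplp0* (0.69, SE 0.0977, adjusted p = 2.29e-05), 1 of 7 members that passed between them (23% of all genes), 3 higher and 4 lower (12.6% and 10.4%). The others were *Rps25* (0.74) and *Rpl9* (0.46), higher after siRNA B, and *Rpl41* (-0.65), *Rpl28* (-0.58), *Rpl7l1* (-0.31) and *Rps23* (-0.30), lower. Here the count of 7 was 4 without *Fmr1* A3, B1 or B2, 11 without *Fmr1* B3, 12 without Scramble A2 or *Zfp598* A3 and 19 without *Zfp598* A1.

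**Figure D3:**
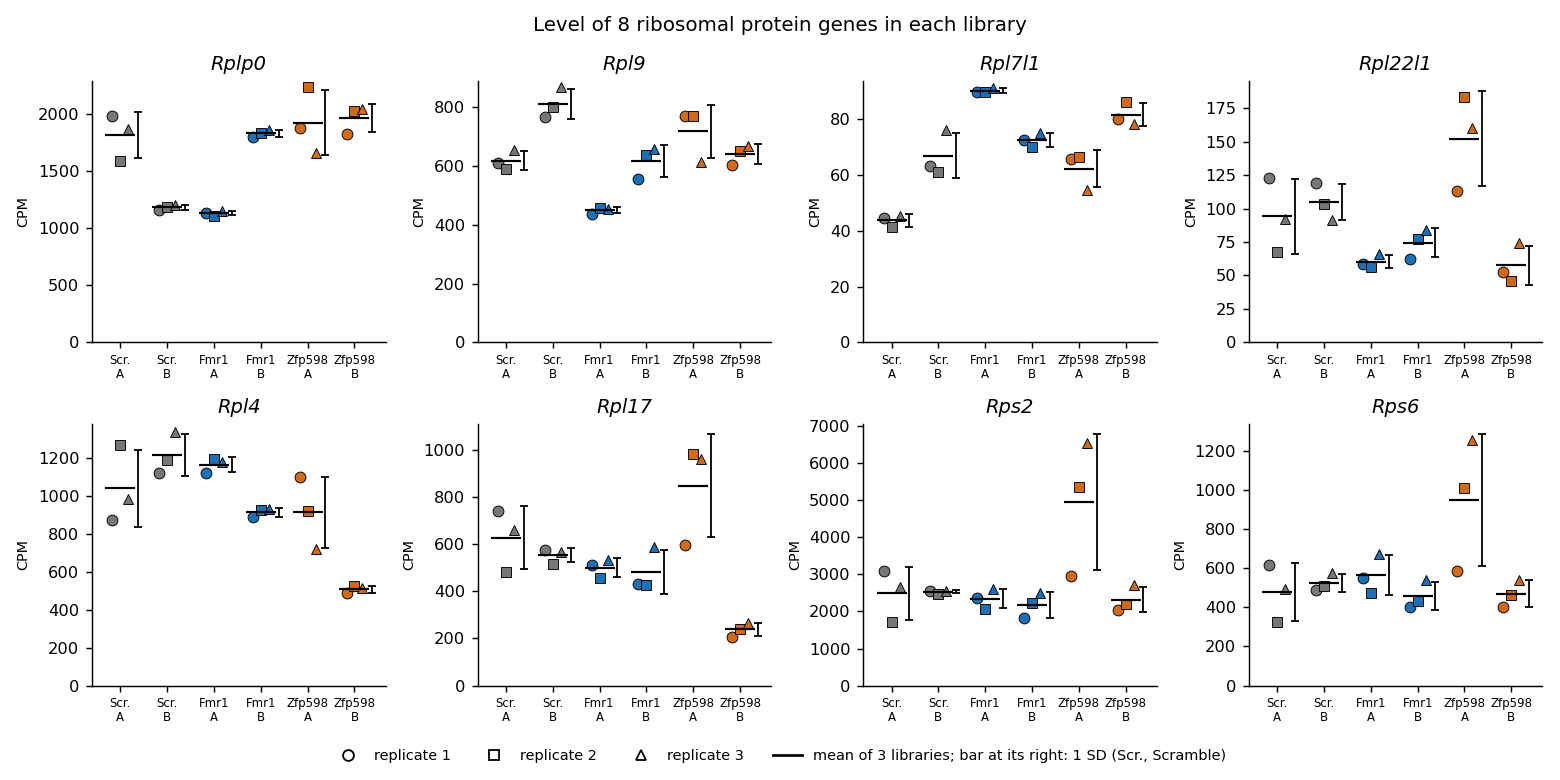
CPM of 8 ribosomal protein genes in the 18 libraries, by siRNA group (Scr., Scramble), with the mean and 1 SD of 3 libraries. *Rplp0* was at 1111 to 1203 CPM after Scramble B and *Fmr1* A and at 1589 to 2233 CPM in the other 4 groups, *Rpl4* and *Rpl17* were lowest after *Zfp598* B, and *Rps2* and *Rps6* were highest in libraries A2 and A3 of *Zfp598* KD.

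With its siRNAs pooled, *Zfp598* KD changed no ribosomal protein gene at an adjusted p of 0.05 (0 of 82 by edgeR, against 1.96% of all 17901 genes, 0.916% higher and 1.04% lower). At an unadjusted p of 0.05, 20 members passed, beside 18.1% of all genes. DESeq2 called 9, all lower, beside 5.8% of all genes. The median log2 difference was -0.03 (0.01 over all genes), which turned to 0.04 at most when 1 library was left out and to -0.18 without libraries A2 and A3. *Rpl4* had the lowest adjusted p (-0.66, SE 0.177, adjusted p = 0.0539). Its Scramble KD libraries ranged from 872 to 1333 CPM (median 1154) and its *Zfp598* KD libraries from 488 to 1097 CPM (median 621), with the 3 siRNA B libraries below all others. Without A2 and A3, 6 members were called, all lower, beside 6.86% of all genes. Without single libraries the count was 9 (*Zfp598* A1, beside 4.88% of all genes), 3 (Scramble A1) or 1 (Scramble B1, *Zfp598* A2 or *Zfp598* B3). The ranges of 2 members separated, against 1.82% of all genes (0.737% higher and 1.08% lower), both lower in *Zfp598* KD. *Rps23*, which reaches the decoding centre, ranged from 349.8 to 451 CPM (median 415) in *Zfp598* KD and from 454 to 569.7 CPM (median 479) in Scramble KD. *Rpl30* ranged from 99.7 to 132 CPM (median 122) in *Zfp598* KD and from 132 to 185 CPM (median 142) in Scramble KD, a separation smaller than the rounding shown. Neither passed the test (*Rps23* -0.24, SE 0.0962, adjusted p = 0.18; *Rpl30* -0.31, SE 0.0917, adjusted p = 0.0756).

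The siRNAs behind this pooled value gave different results. After *Zfp598* siRNA B, 28 of 82 members passed (25.2% of all genes), 2 higher and 26 lower (12% and 13.2% of all genes), with a median of -0.25 over the members and 0.00 over all genes. The median was -0.16 for the small subunit (9 of 33 lower) and -0.32 for the large subunit (2 higher and 17 lower of 49). *Rpl4*, whose long loop lines the exit tunnel, was at 1118, 1189 and 1333 CPM after Scramble B and 488, 523 and 512 CPM after *Zfp598* siRNA B (-1.26, SE 0.129, adjusted p = 6.61e-07). *Rpl17*, at the tunnel's constriction and rim, was at 574, 518 and 568 CPM and 208, 242 and 265 CPM (-1.22, SE 0.172, adjusted p = 2.64e-05). Both fell by more than 2-fold (5.16% of all genes passed it), and their *Zfp598* siRNA B libraries were the lowest of all 18. *Rpl6* fell from 874, 927 and 1035 CPM to 493, 497 and 528 CPM (-0.90, SE 0.104, adjusted p = 2.62e-06). *Rpl13* fell from 600.2, 759.6 and 841 CPM to 342, 416 and 415 CPM (-0.91, SE 0.129, adjusted p = 2.79e-05). *Rpl13a* fell from 48.7, 52.7 and 60.8 CPM to 27.6, 28.1 and 29.9 CPM (-0.92, SE 0.116, adjusted p = 6.67e-06). The groups did not overlap in any of these 3 genes. The 2 members that rose were *Rplp0* (1160.4, 1184 and 1203 CPM to 1826, 2029 and 2047 CPM, 0.73, SE 0.0977, adjusted p = 1.31e-05) and *Rpl7l1* (63.4, 61.3 and 76.3 CPM to 80.1, 86.3 and 78.5 CPM, 0.28, SE 0.0923, adjusted p = 0.0277).

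The other members lower after *Zfp598* siRNA B lay between -0.87 and -0.25. The largest were *Rpl22l1* (-0.87), *Rps25* (-0.75), *Rpl29* (-0.71), *Rpl36a* (-0.70) and *Rps27a* (-0.67), the last a fusion of ubiquitin with a small subunit protein. Among the 28 calls, 14 held without any 1 library, including all those given with library values above except *Rpl7l1*, which passed in 14 of 18 fits. The count fell to 16 without Scramble B3 and to 15 without *Zfp598* B1. Library ranges separated in 45 of 82 members (6 higher and 39 lower), against 45.7% of all genes (22.7% and 23%), so that the share of separated members was near the background and their direction was mostly down. Leaving out *Zfp598* A2 and A3, which are in neither group here, gave 35 calls (27.7% of all genes).

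After *Zfp598* siRNA A, 14 of 82 members passed (11% of all genes), 12 higher and 2 lower (5.6% and 5.43% of all genes), with a median of 0.13. Library ranges separated in 8 members, 4 higher and 4 lower, against 20.5% of all genes (9.19% and 11.3%). *Rps2*, at the mRNA entry channel of the small subunit, was at 3106, 1706 and 2656 CPM after Scramble A and 2954, 5372 and 6560.5 CPM after *Zfp598* siRNA A (1.00, SE 0.218, adjusted p = 0.00536). *Rps6*, the S6 kinase substrate, was at 618, 324 and 493 CPM and 584, 1010.2 and 1254 CPM (0.99, SE 0.223, adjusted p = 0.0067). In both genes libraries A2 and A3 were far above every Scramble library, while A1 lay within the Scramble A range. The windows of *Rps2* and *Rps6* occur elsewhere in the genome for 77.1% and 92.7%. *Rps4x* (0.94), *Rpl10a* (0.75), *Rpl22l1* (0.69), *Rpl12* (0.68), *Rps3* (0.62), *Rps14* (0.61), *Rpl7* (0.53), *Rpl3* (0.45) and *Rpl7a* (0.41) were higher, and *Rpl23* (-0.59) and *Rpl26* (-0.58) lower. Without A2 and A3 the group had 1 library, taken to vary like the other groups, and *Rpl7l1* was the single member still called (0.59, adjusted p = 0.00628), beside 4.39% of all genes. The values of *Rps2* and *Rps6* were then 0.24 (adjusted p = 0.628) and 0.28 (adjusted p = 0.598), that of *Rps4x* 0.05 (adjusted p = 0.956), and the members' median 0.00. *Rpl7l1* was at 65.9, 66.6 and 54.6 CPM, above all 3 Scramble A libraries (41.3 to 45.5 CPM; 0.52, SE 0.0956, adjusted p = 0.00141). Left out alone, *Zfp598* A2, *Zfp598* A3 or Scramble A2 brought the count to 5 and *Zfp598* A1 to 42 (23.7% of all genes). The share of the most counted feature moved with these members (25.8% in A3 and 15.2% in A2, against 5.67% in A1), and its part in the result was not tested.

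**Figure D4:**
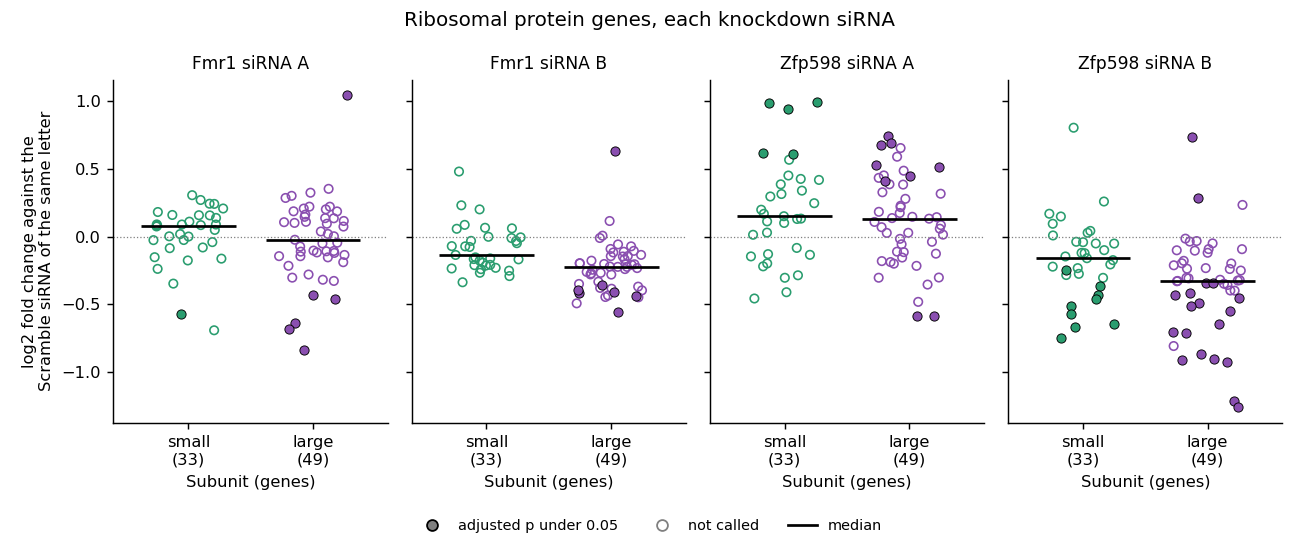
Log2 fold change of the 82 tested ribosomal protein genes for each KD siRNA against the like-lettered Scramble siRNA, by subunit; filled points passed an adjusted p of 0.05 and bars are medians. The large subunit median was -0.32 and the small subunit median -0.16 after *Zfp598* siRNA B, and both were above 0 after *Zfp598* siRNA A, where 1 of the 14 calls remained without libraries A2 and A3.

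Compared directly, *Zfp598* siRNA B and siRNA A differed in 48 of 82 members (33.3% of all genes), 4 higher and 44 lower after siRNA B (15.2% and 18.1%), 13 of them by over 2-fold (7.6%), with a median of -0.44. *Rpl17* differed most (-1.83, SE 0.175, adjusted p = 3.19e-07), at 596, 984 and 963 CPM after siRNA A and 208, 242 and 265 CPM after siRNA B. *Rpl22l1* (-1.40), *Rpl37a* (-1.31) and *Rps4x* (-1.23) followed. *Rpl6*, *Rps2*, *Rps6*, *Rps18*, *Rps27a*, *Rpl10a*, *Rpl12* and *Rpl13* had values from -1.10 to -1.01. Without A2 and A3 the count was 14 (13.1% of all genes) and the median -0.26. The effects of the *Zfp598* siRNAs against their like-lettered Scramble controls differed in 22 of 82 members (20.4% of all genes), 21 with the lower value after siRNA B and 1 with the higher (10.6% and 9.77%). They were led by *Rpl17* (-1.65, SE 0.241, adjusted p = 4.98e-05), *Rpl22l1* (-1.56) and *Rpl6* (-1.18), and 16 members differed without A2 and A3 and 40 without A1 (16.4% and 26.7% of all genes). *Rplp0* went the other way (0.65). The test for any difference among the 6 groups called 60 of 82 members, 21 of 33 in the small and 39 of 49 in the large subunit, where 60.5% of all genes and 56 of 77 mitochondrial ribosomal protein genes were called.

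Read by role, the P stalk genes differed in their calls. *Rplp1* and *Rplp2*, the acidic proteins that bind to the base formed by *Rplp0*, had log2 differences of -0.15 and -0.04 after *Fmr1* siRNA A, -0.09 and -0.06 after *Fmr1* siRNA B, 0.33 and 0.38 after *Zfp598* siRNA A, and -0.35 and -0.09 after *Zfp598* siRNA B, none of which passed. *Rplp0* passed after *Fmr1* siRNA A, *Fmr1* siRNA B and *Zfp598* siRNA B, as given above. *Rplp0* shares 63.2% of its windows with other places in the genome, and its exons overlap those of *Gm73188* on the opposite strand.

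The 10 genes of the peptide exit tunnel and its rim (*Rpl4*, *Rpl17*, *Rpl19*, *Rpl22*, *Rpl23a*, *Rpl26*, *Rpl31*, *Rpl35*, *Rpl38* and *Rpl39*) were all below 0 after *Zfp598* siRNA B, with a median of -0.44, and 5 passed (*Rpl4*, *Rpl17*, *Rpl19* at -0.42, *Rpl26* at -0.46 and *Rpl39* at -0.55). They were chosen with earlier results of these data known, and 71 of all 82 members were below 0 in the same comparison. After *Fmr1* siRNA B all 10 were below 0 as well (median -0.28), and *Rpl4* passed (-0.41). After *Fmr1* siRNA A the median was -0.05, with *Rpl38* and *Rpl22* lower, and after *Zfp598* siRNA A it was -0.20, with *Rpl26* lower. The comparisons of siRNA A share the Scramble A libraries, and those of siRNA B the Scramble B libraries.

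The proteins that are ubiquitylated when ribosomes stall or collide are encoded by *Rps10*, *Rps20*, *Rps2* and *Rps3*. None of the 4 passed in either pooled comparison. *Rps10* had pooled differences of 0.22 in *Fmr1* KD (SE 0.156, adjusted p = 0.445, edgeR quasi-likelihood test) and 0.36 in *Zfp598* KD (SE 0.158, adjusted p = 0.235). Its libraries ranged from 17.8 to 24.9 CPM (median 19.2) in Scramble KD, from 18.4 to 28.9 CPM (median 23.1) in *Fmr1* KD and from 19.3 to 36.0 CPM (median 23.5) in *Zfp598* KD, so that the 3 conditions overlapped. *Rps20* had pooled differences of -0.02 (adjusted p = 0.968) and 0.24 (adjusted p = 0.488). By siRNA, *Rps2* and *Rps3* passed after *Zfp598* siRNA A, calls lost without A2 and A3, and none of the 4 passed after another siRNA. Of the decoding centre and mRNA channel genes (*Rps2*, *Rps3*, *Rps15* and *Rps23*), *Rps23* fell after *Zfp598* siRNA B (-0.36, SE 0.0973, adjusted p = 0.0093), a call lost without Scramble B3 or without *Zfp598* B1.

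*Rps6* and *Rpl7* encode proteins used as ribosome markers on blots. Their pooled differences were 0.03 and -0.18 in *Fmr1* KD (adjusted p = 0.962 and 0.547, edgeR) and 0.50 and 0.18 in *Zfp598* KD (adjusted p = 0.248 and 0.581). *Rpl7* was at 1623, 1614 and 1706 CPM after Scramble B and 1089, 1248 and 1372 CPM after *Fmr1* siRNA B (-0.41, SE 0.136, adjusted p = 0.0331), and these groups did not overlap. The 5S particle genes *Rpl5* and *Rpl11*, whose proteins bind MDM2 when assembly fails, did not pass in a pooled comparison. *Rpl5* fell after *Zfp598* siRNA B, from 797, 818 and 873 CPM to 529, 587 and 626 CPM (-0.51, SE 0.104, adjusted p = 0.00102), while *Rpl11* had -0.12 (adjusted p = 0.708). Of the ribosomal protein genes that the symbol rule left out (among them *Fau*, *Rpl36al* and *Rack1*), none passed in a KD comparison, and *Fau* was lower after *Zfp598* siRNA B than after siRNA A (-0.97, adjusted p = 0.00177).

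Paralogs were compared with their parents as a ratio within each library, which does not depend on library size. Of 6 pairs and both KDs (12 exact permutation tests over 6 against 6 libraries, Benjamini-Hochberg adjusted), 1 passed. *Rpl7l1* was at 2.55, 3.31 and 2.84% of *Rpl7* after Scramble A and 3.91, 3.80 and 4.47% after Scramble B. It was at 5.74, 6.17 and 5.36% after *Fmr1* siRNA A and 6.66, 5.62 and 5.47% after *Fmr1* siRNA B, above the Scramble range in 6 of 6 libraries. The log2 ratio was 0.76 higher in *Fmr1* KD (exact permutation p = 0.00216, the smallest that 924 assignments allow, adjusted p = 0.0260), 0.99 for siRNA A and 0.54 for siRNA B. This p treats the 12 libraries as exchangeable, although they are triplicates of 4 siRNAs and *Rpl7l1* also differed between the Scramble siRNAs. Permuting the siRNAs, 2 against 2, could give no two-sided p below 0.333. After *Zfp598* siRNA B the ratio was 6.47, 6.34 and 4.92%, above the Scramble range too, and after siRNA A 3.79, 2.64 and 2.32%, and the pooled difference of 0.26 did not pass (exact permutation p = 0.383, adjusted p = 0.575). Without any 1 of the 6 *Fmr1* KD libraries the ratio differed by 0.72 to 0.79 and no longer passed (exact permutation test, adjusted p = 0.0519). This p was the same in all 6 fits, with the remaining *Fmr1* KD libraries still above the Scramble range. Fewer libraries allow fewer assignments, so the lost call does not single out a library. Of its parts, *Rpl7l1* had the pooled rise of 0.55 and *Rpl7* a pooled difference of -0.18 that did not pass.

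The other 11 paralog tests did not pass, with the lowest adjusted p for *Rpl39l*, a paralog of *Rpl39* known from the testis (0.28 higher in *Fmr1* KD, exact permutation p = 0.0346, adjusted p = 0.208). *Rpl39l* was at 26.3, 30.4 and 26.6% and 38.9, 33.6 and 31.9% of *Rpl39* after the Scramble siRNAs and 40.6, 43.5 and 46.6% after *Zfp598* siRNA B. *Rpl22l1*, the alternative partner of *Rpl22*, was at 29.0, 37.4 and 32.3% of *Rpl22* after *Zfp598* siRNA A and 17.9, 13.7 and 21.0% after siRNA B. Of these libraries, only A2, A3 and B2 lay outside the Scramble range of 17.9 to 31.1%. The ratio was not tested without A2 and A3. The means of *Rpl22l1* lay on opposite sides of those of Scramble KD (log2 differences of 0.57 and -0.64), and pooled they gave -0.04 (exact permutation p = 0.892, adjusted p = 0.892). *Rps27l* varied between 46.6% and 91.3% of *Rps27* over the libraries, with no KD difference past the spread. *Rps4l* had 9 to 60 counts a library and *Rpl36al* 25 to 59, so that their ratios were imprecise.

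**Figure D5:**
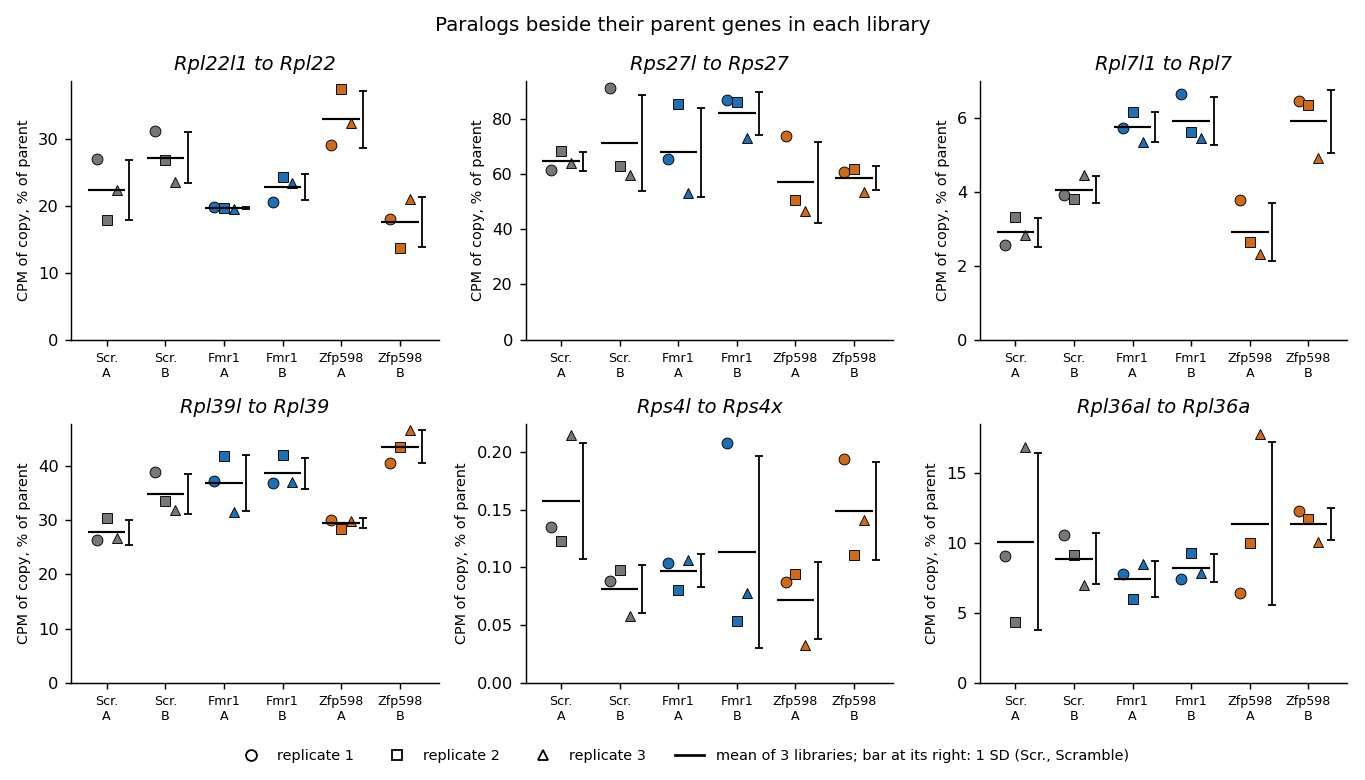
CPM of each paralog as a percentage of its parent in the 18 libraries, for 6 pairs, by siRNA group (Scr., Scramble), with the mean and 1 SD of 3 libraries. *Rpl7l1* was above the Scramble range in all 6 *Fmr1* KD libraries and after *Zfp598* siRNA B. *Rpl22l1* was above the Scramble range in libraries A2 and A3 of *Zfp598* KD and below it in library B2.

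Members with and without a pyrimidine run within 15 bases of the annotated start were then set side by side. After *Zfp598* siRNA B, 13 of 33 tested members with a run were lower (median -0.32). Of 28 without a run, 7 were lower and 2 higher (median -0.24), beside 13.2% and 12% of all genes. The members with a run include the 9 whose run lay wholly before the annotated start. Of these, *Rpl4*, *Rpl6*, *Rpl13* and *Rps27l* were among the lower ones. The part of the run was not tested. After *Fmr1* siRNA A the medians were 0.10 and 0.01, after *Fmr1* siRNA B -0.21 and -0.19, and after *Zfp598* siRNA A 0.13 and 0.13. Members with many copies elsewhere in the genome and those with few had similar medians after *Zfp598* siRNA B (-0.25 and -0.26 for shares of windows above and below 50%). The 21 members that host a named snoRNA had a median of -0.27 there and the other 61 a median of -0.25.

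Other gene lists of the translation machinery, chosen with earlier results of these data known, were compared in the same fits. Of all genes, 9.35% were higher and 12.7% lower after *Fmr1* siRNA A, and 11% and 10.4% after *Fmr1* siRNA B. The shares were 5.6% and 5.43% after *Zfp598* siRNA A, and 12% and 13.2% after *Zfp598* siRNA B. The 17 listed TOP mRNAs that encode no ribosomal protein, among them translation elongation and initiation factors, had 7 lower and a median of -0.22 after *Zfp598* siRNA B, and 5 lower and a median of -0.18 after *Fmr1* siRNA B. Their medians were 0.04 after *Fmr1* siRNA A (2 higher and 4 lower) and 0.14 after *Zfp598* siRNA A (3 higher). Of 77 mitochondrial ribosomal protein genes, 3 rose and 13 fell after *Zfp598* siRNA B, with a median of -0.07. After *Fmr1* siRNA A 13 of the 77 rose and none fell (median 0.16). The 49 ribosome biogenesis factors, which process rRNA and assemble subunits in the nucleolus, had 32 members that rose and 1 that fell after *Fmr1* siRNA A (median 0.41), beside 1 and 6 among the ribosomal protein genes. After *Fmr1* siRNA B 3 of the 49 rose and 3 fell (median 0.03). The difference between the siRNAs was significant for 20 of the 49, all lower with siRNA B (8.86% of all genes were lower). With the *Fmr1* siRNAs pooled 6 of the 49 passed, all higher (median 0.18), where 2.73% of all genes were higher.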

How the data were processed

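RNA was measured in 18 rRNA-depleted libraries of N2A cells. Per the labels the authors used Trim Galore, FastQC, STAR, featureCounts and DESeq2 with GRCm39, versions not given, and deposited raw read counts per gene. The annotation release, strand setting and treatment of multimapping reads are not given in the sources used here. Reads of members with near-identical copies or overlapping exons may therefore be assigned to either gene or left uncounted. Of the 84 members, 32 overlap exons of another gene on the same strand and 48 on the opposite strand (GENCODE M39).

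Counts were tested with edgeR 4.0.16 (R 4.3.3) by the quasi-likelihood test after TMM normalisation and filterByExpr (minimum count 10, minimum total 15), with Benjamini-Hochberg adjustment over all genes tested, in a model of 3 conditions (17901 genes) and a model of 6 siRNA groups (19003 genes). Fold changes are log2. A member was called at an adjusted p under 0.05. CPM used TMM library sizes, and paralog ratios a pseudocount of 0.5 CPM. DESeq2 1.42.0 was an alternative. On simulated data for pooled *Fmr1* KD (17901 genes), 69 of 96 2-fold and 93 of 96 4-fold changes were called. The simulated libraries of a condition were drawn independently around a common mean. They held no shift shared by the libraries of an siRNA, unlike the real ones. Replicate numbers did not pair the libraries (same-numbered libraries of different groups had a mean r of 0.0382). The members, lists and tests were chosen with earlier results of these data known. Named were the siRNA targets, members with a listed role, paralogs, the 3 highest and 3 lowest called members of each comparison and members past 2-fold. Further called members were named after their values were seen. Results of some genes are not reported here.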

Additional observations from a re-analysis of the deposited data

Results flagged for a closer look

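In 5 of 144 groups of 6 libraries examined (3.47%, where chance gives about 1 in 20 groups), 1 library lay apart from the other 5. These were *Rpl10* in *Fmr1* B1 (1172 CPM), *Rpl23a* in *Zfp598* A1 (14.6 CPM), *Rpl35* in *Zfp598* A3 (166 CPM), *Rpl7* in Scramble A2 (1245 CPM) and *Rps23* in Scramble B3 (569.7 CPM).

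Each siRNA was set against its like-lettered Scramble siRNA, a match that was a choice. The KD effect differed between siRNA B and siRNA A, by the interaction in the edgeR model of 6 groups, for 5 members in *Fmr1* KD. The log2 difference was 1.31 for *Rplp0*, -0.93 for *Rpl7l1*, -0.72 for *Rpl35*, -0.57 for *Rpl4* and -0.39 for *Rps23*.

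In *Zfp598* KD the effect differed for 22 members. In the large subunit the log2 differences were -1.65 for *Rpl17*, -1.56 for *Rpl22l1*, -1.18 for *Rpl6*, -1.14 for *Rpl10a*, -1.07 for *Rpl4*, -1.0 for *Rpl12*, -0.97 for *Rpl13*, -0.94 for *Rpl3*, -0.91 for *Rpl13a*, -0.76 for *Rpl7*, -0.68 for *Rplp1*, -0.66 for *Rpl7a*, -0.66 for *Rpl5*, -0.56 for *Rpl9* and 0.65 for *Rplp0*. In the small subunit they were -1.15 for *Rps6*, -1.12 for *Rps2*, -1.06 for *Rps18*, -0.99 for *Rps4x*, -0.90 for *Rps3*, -0.86 for *Rps27a* and -0.38 for *Rpsa*. Without *Zfp598* A2 and A3, 16 members were called.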

How the results depend on the processing

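Of the 146 member values called by siRNA or pooled comparison, RLE size factors kept 146, DESeq2 145, added pseudogene counts 144, no filter on low counts 143, removal of the most counted feature 143 and upper quartile scaling 139. The alternatives chosen after seeing the data kept 128 (share of the most counted feature as a covariate) and 83 (without *Zfp598* A2 and A3, where *Rps12* between the *Zfp598* siRNAs turned from -0.69 to 0.021). The cause was not tested. Counts of members called moved as follows. They are given here without the share of all genes called in each setting. They show how far each count moved and are no result about the members. Pooled *Fmr1* KD (2) gave 1 with upper quartile, 1 without a filter, 5 with the covariate and 5 without A2 and A3. Pooled *Zfp598* KD (0) gave 1 with upper quartile, 1 without a filter, 1 with pseudogenes, 5 with the covariate, 6 without A2 and A3 and 9 with DESeq2. Without a filter *Fmr1* siRNA A (7) gave 14, *Fmr1* siRNA B (7) 22, *Zfp598* siRNA A (14) 33, *Zfp598* siRNA B (28) 43, Scramble B against A (6) 18, *Fmr1* B against A (7) 33, the *Fmr1* difference (5) 17 and the *Zfp598* difference (22) 44. With the covariate *Fmr1* siRNA A gave 22, *Fmr1* siRNA B 35, *Zfp598* siRNA B 53, Scramble B against A 16, *Fmr1* B against A 30 and the *Fmr1* difference 29. Without A2 and A3 *Fmr1* siRNA A gave 13, *Fmr1* siRNA B 18, *Zfp598* siRNA A 1, Scramble B against A 15, *Fmr1* B against A 19, *Zfp598* B against A (48) 14 and the *Fmr1* difference 13. Upper quartile gave 11 for *Fmr1* B against A. With 1 library left out the counts ranged from 0 to 3 (pooled *Fmr1* KD), 0 to 9 (pooled *Zfp598* KD), 5 to 11 (*Fmr1* siRNA A), 2 to 17 (*Fmr1* siRNA B), 5 to 42 (*Zfp598* siRNA A), 15 to 34 (*Zfp598* siRNA B), 3 to 15 (Scramble B against A), 4 to 19 (*Fmr1* B against A), 37 to 57 (*Zfp598* B against A), 3 to 12 (*Fmr1* difference), 19 to 40 (*Zfp598* difference) and 49 to 73 (any difference), and the log2 ratio of *Rpl7l1* to *Rpl7* in *Fmr1* KD from 0.68 to 0.84. With all genes as the denominator the share of the 84 genes was 4.17% (Scramble A), 4.33% (Scramble B), 4.37% (*Fmr1* A), 4.08% (*Fmr1* B), 4.72% (*Zfp598* A) and 3.78% (*Zfp598* B). With the replicate number as a block, which does not pair these libraries, 144 of 146 calls were kept, and the counts were 1 for pooled *Fmr1* KD, 14 for *Fmr1* B against A and 8 for the *Fmr1* difference. Depth limited the least counted members most, such as *Rpl10l* and *Rpl3l*, which were not tested.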
